A study of Mus musculus with 14 samples.

Results

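The proximal T-cell receptor signalling genes are the kinases, adaptors, enzymes and brakes that act between the T-cell receptor at the membrane and the pathways that reach the nucleus. The set described here holds 36 genes, chosen by name, of 36870 different names in the gene name column of the array. All 36 were measured, by 89 probes in all, and 86 of these probes entered the test. The 3 probes that did not enter it belonged to Dok2, Ptprc and Sos1, each of which had at least one other probe that did.

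RNA came from CD4+ T-cells of Roquin san/+ mice, which carry one copy of the sanroque allele of the RNA-binding protein Roquin in every cell, and of wild-type mice. There were 7 arrays of each genotype, lettered A to G. The labels gave no treatment, age or sex, and did not say how the CD4+ T-cells were isolated or whether each array was a separate mouse, so that p-values measure the spread between these arrays. The question put by the design was whether the level of these genes differed between the genotypes. Levels are log2 signals relative to the 75th percentile of the same array, so that a level of 0 lies at that percentile, and a difference of 1 is a 2-fold difference. In bulk RNA of this kind fewer T-cells and less RNA per T-cell cannot be told apart.

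When a T-cell receptor binds its ligand, the kinase Lck phosphorylates the receptor tails, Zap70 docks there, and Zap70 then phosphorylates the scaffolds Lat and Lcp2 (also called SLP-76). Enzymes and exchange factors gathered on these scaffolds open the calcium, Ras, NF-kappaB and actin pathways. Phosphatases, ubiquitin ligases, diacylglycerol kinases and inhibitory adaptors hold the signal back.

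Some arrays stood apart and are named before the results. On Roquin san/+ array G and wild-type array E the spots were read 2 grid rows away from their own place: the correlation of the array with the median of all arrays was 0.022 as deposited on both, and 0.990 and 0.988 after the rows were moved back, which was done before every value given here unless stated. On these arrays 21.9% and 19.4% of probes carried the scanner's call of signal well above background, against 53.4% to 75.5% on the other 12. Their calls were made with the control spots out of place and were not used. The 75th percentile of their signal was 811 and 284 units. Roquin san/+ array C had the lowest signal, with a 75th percentile of 84.6 units against 284 to 811 on the others, and its correlation with the median of all arrays was 0.918. Slide 1 carried Roquin san/+ arrays A, B, C, F and G with wild-type arrays F and G, and slide 2 the remaining 7, so that each slide held both genotypes in unequal numbers (5 to 2 and 2 to 5). The labels' cell type was borne out by 8 CD4 T-cell markers, Cd3d, Cd3e, Cd3g, Cd4, Cd28, Cd5, Tcf7 and Lef1, each of which was well above background on all 12 well-placed arrays. Their mean level was lowest on Roquin san/+ array F (1.75), Roquin san/+ array C (2.09) and wild-type array C (2.37), and ran from 3.02 to 3.55 on the other 11.

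A few sequences show what the probes and control regions of these genes look like. The probe for Lat, the scaffold that carries the docking tyrosines, lies on the minus strand at chr7:133507719-133507778 (mm9, the build in the array's own annotation) and reads through coding sequence, with a tyrosine codon in capitals. The probe for Ptpn6, the phosphatase SHP-1, lies on the minus strand at chr6:124671114-124671173 (mm9) and crosses the end of the coding sequence, with the stop codon in capitals and 12 bases after it.
Lat probe: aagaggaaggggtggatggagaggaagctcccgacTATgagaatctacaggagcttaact
Ptpn6 probe: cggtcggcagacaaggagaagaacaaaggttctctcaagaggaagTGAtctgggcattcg

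Lck is known for using a distal and a proximal promoter, and Ptpn22 was the gene with the smallest p-value below, so the 120 bases before their start sites are shown from the RefSeq promoter table (GRCm38.p6). Capitals mark TGTGGTT, the letters bound by RUNX factors, and GGAAGT, the core bound by ETS factors, on either strand (ACTTCC is the latter on the opposite strand). The distal Lck region is chr4:129573642-129573761 on the minus strand, the proximal one chr4:129558373-129558492 on the minus strand, and the first of the Ptpn22 starts gives chr3:103859675-103859794 on the plus strand.
Lck distal: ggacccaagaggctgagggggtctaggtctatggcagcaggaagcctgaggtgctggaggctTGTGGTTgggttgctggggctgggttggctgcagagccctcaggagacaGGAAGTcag
Lck proximal: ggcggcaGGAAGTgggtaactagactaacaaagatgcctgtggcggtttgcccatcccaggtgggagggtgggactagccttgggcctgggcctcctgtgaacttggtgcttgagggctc
Ptpn22: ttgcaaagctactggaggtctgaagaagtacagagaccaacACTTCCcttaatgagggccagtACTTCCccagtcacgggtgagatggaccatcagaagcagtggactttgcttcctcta

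The table held 29 of the 36 genes. Within 250 bases before a start, TGTGGTT was found for 3 of them (Lck, Sla2 and Was), or 10.3%, and for 5.08% of all 27025 genes in the table. GGAAGT was found for 10 of the 29, or 34.5%, and for 22.2% of all genes. These are letters in a window and carry no statement about the factors.

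No gene of the set differed between Roquin san/+ and wild-type CD4+ T-cells after adjustment over all probes tested. The limma test called 0 of the 36 genes at an adjusted p below 0.05, and 0% of all 32831 probes tested. At an unadjusted p below 0.05 limma gave 1 of the 36 genes, Ptpn22, and 994 of the 32831 probes, or 3.03%, of which 813 were higher (2.48%) and 181 lower (0.551%) in Roquin san/+. The levels of the genotypes overlapped for all 36 genes, and were apart for 14 of all probes tested, or 0.0426%. Of the 36 genes 17 were higher and 19 lower on average in Roquin san/+. Their median difference was -0.0073, beside a median of 0.05 over all probes tested.

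The differences ran from -0.36 for Rasgrp1 to 0.41 for Ptpn22, and 31 of the 36 lay within 0.25 of 0. The 95% limits reached from 0.35 to 0.87 to either side of the difference, and for 35 of the 36 genes they stayed within 1 log2 unit of 0. The exception was Was, the actin regulator mutated in Wiskott-Aldrich syndrome, with limits of -1.10 and 0.63.

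**Figure D1:**
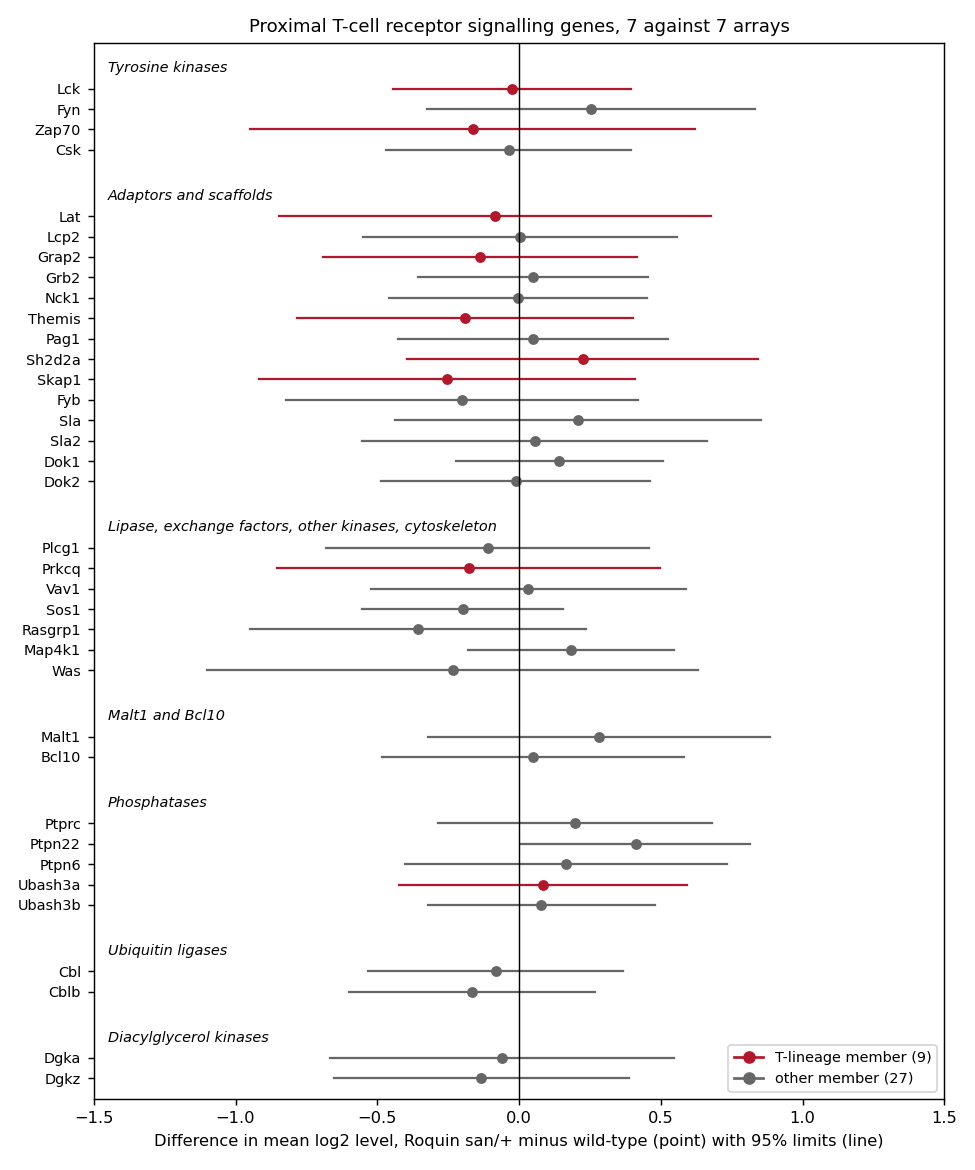
Difference in mean log2 level between Roquin san/+ and wild-type arrays (point) with its 95% limits from limma (line) for each of the 36 genes, grouped by role, with 9 genes used largely by T- and NK-cells in red. The points lie between -0.36 and 0.41, and the limits of Ptpn22 alone leave out 0, with 0.0065 as the lower one.

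The tyrosine kinases start the signal. Lck levels in Roquin san/+ were 4.14 at the lowest, 4.89 at the median and 5.11 at the highest, against 4.09, 4.81 and 5.15 in wild-type. The ranges nearly coincided, with Roquin san/+ array F and wild-type array C lowest. The mean was 4.76 ± 0.34 (SD, n = 7) in Roquin san/+ and 4.79 ± 0.34 in wild-type, a difference of -0.02 with a standard error of 0.20.

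Zap70, which is recruited to the phosphorylated receptor, ran from 1.77 through a median of 3.60 to 4.04 in Roquin san/+ and from 2.30 through 3.53 to 3.98 in wild-type. Its 2 lowest Roquin san/+ arrays were C and F and its lowest wild-type array was C. All other arrays of either genotype lay at 3.22 or above. The difference was -0.16 with a standard error of 0.37, and came to 0.14 without these 3 arrays. Fyn, a relative of Lck, differed by 0.25 (standard error 0.27), and Csk, which switches Lck and Fyn off, by -0.04 (standard error 0.20).

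The adaptors and scaffolds, which have no enzyme activity of their own and hold the complex together, numbered 14, of which 7 were higher and 7 lower in Roquin san/+, and none had an unadjusted p below 0.05. Lat ranged from 1.47 through 2.93 to 3.71 in Roquin san/+ and from 1.74 through 2.73 to 3.47 in wild-type. The lowest values were again on Roquin san/+ arrays F and C and wild-type array C. The difference was -0.08 with a standard error of 0.36. Lcp2, which Lat holds through Grap2, ranged from 0.45 through 1.32 to 2.09 in Roquin san/+ and from 0.35 through 1.57 to 1.63 in wild-type, and its difference of 0.0040 (standard error 0.26) was the second smallest of the set in size.

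Grap2 (also called Gads), the link between Lat and Lcp2, differed by -0.14 (standard error 0.26), and Grb2, which brings the exchange factor Sos1 to Lat, by 0.05 (standard error 0.19). Grb2 was highest on Roquin san/+ array F, at 2.40, the rest of that genotype running from 1.52 to 1.85. Nck1, an adaptor to the actin machinery, differed by -0.0034 (standard error 0.21), and Themis, a regulator of thymocyte selection, by -0.19 (standard error 0.28).

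Skap1 and Fyb (also called ADAP) form a unit that links the receptor to integrins. Skap1 ranged from 2.11 through 3.56 to 3.98 in Roquin san/+ and from 2.73 through 3.75 to 3.88 in wild-type, a difference of -0.25 with a standard error of 0.31. Fyb had means of 3.10 ± 0.67 and 3.30 ± 0.42 in Roquin san/+ and wild-type, a difference of -0.20 (SD, n = 7, standard error 0.29). Sh2d2a (also called TSAd), which binds Lck, was the adaptor with the highest difference, 0.22 (standard error 0.29).

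The inhibitory adaptors were no more apart than the others. Sla, which lowers the receptor level at the surface, differed by 0.21 (standard error 0.30) and its relative Sla2 by 0.05 (standard error 0.29). Dok1 and Dok2, docking proteins that recruit inhibitors of Ras, differed by 0.14 (standard error 0.17) and -0.01 (standard error 0.22). Pag1, the membrane adaptor that recruits Csk, differed by 0.05 (standard error 0.22).

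The lipase, exchange factors, serine-threonine kinases and cytoskeletal regulator of the set held 5 of 7 genes with a lower mean in Roquin san/+, with a median difference of -0.18, and none passed an unadjusted p of 0.05. Without Roquin san/+ array F 4 of the 7 were lower (median -0.03), on slide 1 alone 5 were lower (median -0.45), and on slide 2 alone 6 were higher (median 0.25). Plcg1, the lipase that makes the calcium and diacylglycerol messengers, ranged from -0.10 through 1.09 to 1.32 in Roquin san/+ and from 0.06 through 1.20 to 1.63 in wild-type. Its difference was -0.11 with a standard error of 0.27. Prkcq, the diacylglycerol-activated kinase that leads to NF-kappaB, ranged from 0.07 through 1.51 to 1.70 in Roquin san/+ and from 0.19 through 1.62 to 1.83 in wild-type. Its difference was -0.18 with a standard error of 0.32, and was -0.0093 without Roquin san/+ arrays C and F and wild-type array C.

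Rasgrp1, the exchange factor that turns on Ras in response to diacylglycerol, had the lowest difference of the set. It ranged from 0.81 through 1.69 to 2.02 in Roquin san/+ and from 0.91 through 2.03 to 2.48 in wild-type. The lowest arrays were Roquin san/+ C and F and wild-type C, and 4 wild-type arrays lay above every Roquin san/+ array. The difference was -0.36 with a standard error of 0.28 (unadjusted limma p = 0.220, adjusted p = 0.884, exact two-sided permutation p = 0.213). It was -0.98 on slide 1 and 0.25 on slide 2.

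Vav1, the exchange factor for Rac, differed by 0.03 (standard error 0.26) and Sos1, the exchange factor for Ras that Grb2 carries, by -0.20 (standard error 0.17). Map4k1 (also called HPK1), a kinase that marks Lcp2 for removal, differed by 0.18 (standard error 0.17). Was differed by -0.23 with a standard error of 0.41, the widest of the set, and its value on Roquin san/+ array C was -1.04, the rest of that genotype running from 0.92 to 1.97.

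Malt1 and Bcl10 act together between protein kinase C and NF-kappaB. Malt1 ranged from -0.08 through 0.33 to 1.08 in Roquin san/+ and from -1.03 through 0.25 to 0.81 in wild-type. Roquin san/+ arrays F and G lay above every wild-type array, and wild-type array C lay below all others. The difference of 0.28 (standard error 0.28) was the second highest of the set, and was 0.08 without Roquin san/+ arrays C and F and wild-type array C. Bcl10 differed by 0.05 (standard error 0.25).

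All 5 phosphatases had a higher mean in Roquin san/+, by 0.08 to 0.41, and 1 of the 5 had an unadjusted p below 0.05. On slide 1 alone 4 of the 5 were lower (median -0.08), and on slide 2 alone 5 of 5 were higher (median 0.35). Of all probes tested 56.0% were higher in Roquin san/+. Ptpn22, the phosphatase that dephosphorylates Lck and Zap70, ranged from 1.28 through 1.49 to 1.75 in Roquin san/+ and from 0.26 through 1.16 to 1.61 in wild-type. The 7 Roquin san/+ arrays lay close together, while wild-type array C lay far below the rest, and the genotypes overlapped on wild-type arrays B and D. The mean was 1.49 ± 0.18 (SD, n = 7) against 1.08 ± 0.42.

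The Ptpn22 difference was 0.41 with a standard error of 0.19, a 1.33-fold difference with 95% limits of 0.0065 and 0.82 on the log2 scale. The unadjusted limma p was 0.0469 and the adjusted p 0.884, and the exact two-sided permutation test of this single gene gave p = 0.0192 with no adjustment for the 36 genes. The difference was 0.45 on slide 1, 0.35 on slide 2, 0.40 with slide as a block and 0.27 without wild-type array C. In each of these 4 fits the unadjusted limma p was above 0.05. Ptpn22 had 1 probe, at chr3:103716092-103716151 on the plus strand (mm9).

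Ptprc (CD45), which keeps Lck in its ready state, ranged from 3.25 through 3.88 to 4.04 in Roquin san/+ and from 2.51 through 3.72 to 4.04 in wild-type. Roquin san/+ array C and wild-type array C were lowest and the remaining arrays lay within 3.44 to 4.04. The difference was 0.20 with a standard error of 0.23. Ptprc had 7 probes, the most of any member, and 1 of its 6 tested probes, at chr1:140068557-140068616 on the minus strand (mm9), had an unadjusted p below 0.05. That probe ranged from 2.46 through 2.72 to 3.29 in Roquin san/+ and from 1.24 through 2.48 to 2.84 in wild-type. Its difference was 0.52 with a standard error of 0.24 (unadjusted limma p = 0.0486, adjusted p = 0.884, exact two-sided permutation p = 0.0420), and wild-type array C was again lowest.

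Of the remaining phosphatases, Ptpn6 differed by 0.16 (standard error 0.27). Ubash3a and Ubash3b (also called STS-2 and STS-1), which act on Zap70, differed by 0.08 (standard error 0.24) and 0.08 (standard error 0.19).

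The ubiquitin ligases, which mark activated kinases and scaffolds for removal, were both lower in Roquin san/+ by less than their standard error. Cblb ranged from -1.47 through -0.75 to -0.54 in Roquin san/+ and from -1.28 through -0.64 to -0.22 in wild-type, a difference of -0.17 (standard error 0.20). Array C of each genotype was its lowest. Cbl differed by -0.08 (standard error 0.21).

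The diacylglycerol kinases end the signal to Rasgrp1 and Prkcq by consuming diacylglycerol. Dgka ranged from 2.94 through 4.05 to 4.40 in Roquin san/+ and from 2.71 through 4.18 to 4.42 in wild-type, a difference of -0.06 (standard error 0.28). Roquin san/+ array F and wild-type array C were lowest. Dgkz differed by -0.13 (standard error 0.24).

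**Figure D2:**
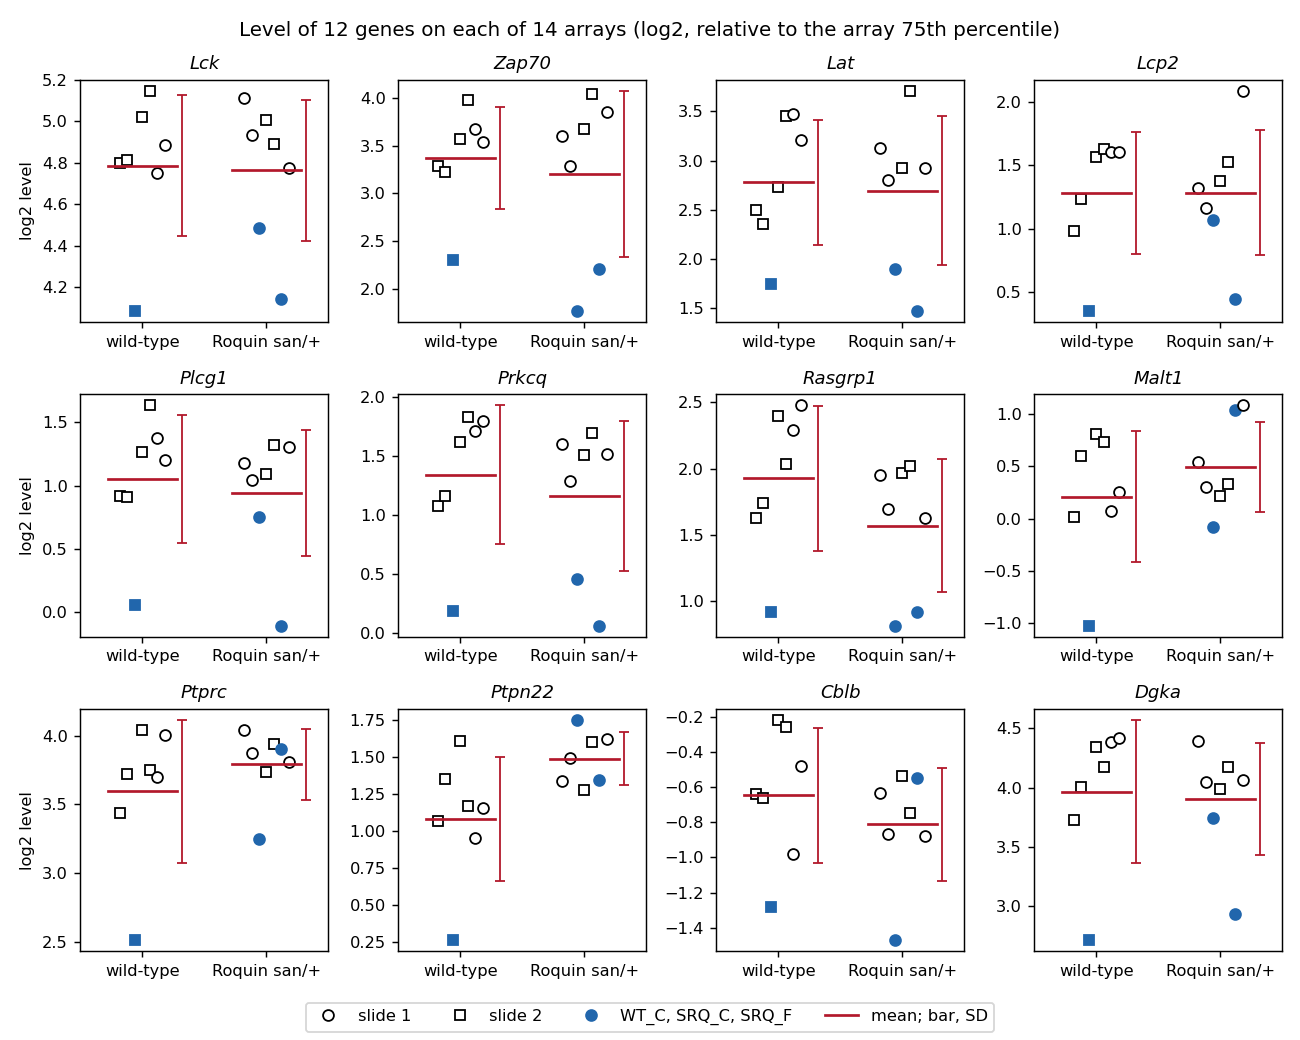
Log2 level of 12 genes on each of the 14 arrays by genotype, with circles for slide 1 and squares for slide 2, the mean as a red line and the SD as a red bar (n = 7). Wild-type array C and Roquin san/+ arrays C and F are filled in blue, and on Zap70, Lat, Prkcq and Rasgrp1 these 3 arrays are the lowest of their genotype.

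Where a gene had several probes, they did not always point the same way. Of 25 genes with more than 1 tested probe, 10 had probes on both sides of 0. For these genes the direction of the gene's difference rested on the probe chosen: for Malt1 the probes ran from -0.14 to 0.28, for Pag1 from -0.59 to 0.05, for Cblb from -0.17 to 0.23 and for Zap70 from -0.16 to 0.15. The Pag1 probe at -0.59 (standard error 0.61) was well above background on only 6 well-placed arrays, so that its sign decides little. The other Pag1 probe below 0 (-0.32, standard error 0.47) was so on 9. The extreme probes of Malt1, Cblb and Zap70 were so on every well-placed array. Over all 86 tested probes 2 had an unadjusted p below 0.05, those of Ptpn22 and Ptprc described above.

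The spread between arrays of one genotype was larger than the difference between genotypes and was shared by many of the genes. Wild-type array C was the lowest of the 7 wild-type arrays for 34 of the 36 genes, the exceptions being Sla and Dok1, and for 25.4% of all probes tested. Roquin san/+ array C was the lowest of its genotype for 20 of the 36 and for 22.0% of all probes, and array F for 11 of the 36 and 10.7% of all probes. Roquin san/+ array C was the highest of its genotype for 2 of the 36 and for 38.2% of all probes. Array F was also the highest of its genotype for 6 of the 36 and for 12% of all probes. Among the 6 were Grb2 (2.40), Map4k1 (2.42) and Ptpn6 (2.41). These counts of the 36 rest on the probe with the highest mean of each gene. Over the 50 other tested probes of these genes, wild-type array C was lowest of its genotype for 28. Roquin san/+ array C was lowest for 8 of the 50 and more often highest. Roquin san/+ array F was lowest for 13 of them and array E for 22. Array E was lowest of its genotype for 1 of the 36 and for 33.8% of all probes.

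The 9 genes whose known use among blood cells is largely in T- and NK-cells (Lck, Zap70, Lat, Prkcq, Themis, Ubash3a, Sh2d2a, Skap1 and Grap2) were set beside the other 27, which B-cells, myeloid cells or most cells also use. Array F was one of the 2 lowest Roquin san/+ arrays for 9 of the 9, and for 10 of the 27. Array C was so for 8 of the 9 and for 22 of the 27. Wild-type array C was one of the 2 lowest of its genotype for 9 of the 9 and for 26 of the 27. The share of all probes with an array among the 2 lowest was not computed. The mean level of the 9 was 0.51 on array F, 0.80 on array C and 1.63 to 1.88 on the remaining Roquin san/+ arrays. That of the 27 was 1.06 on array F and 0.47 on array C, against 1.09 to 1.24. On wild-type array C both were low, at 0.61 and 0.31, the rest of that genotype running from 1.37 to 1.83 and from 0.88 to 1.31. These counts describe single arrays, and no test was made of the difference between the 9 and the 27.

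Markers of other cells also varied between the arrays, and not always alongside these levels. On Roquin san/+ array F the mean of 7 B-cell markers was 1.72, where the remaining Roquin san/+ arrays ran from -3.86 to -1.23 and wild-type from -4.11 to -0.13. The mean of 10 myeloid markers was 2.34 on that array, where the remaining Roquin san/+ arrays ran from -1.67 to -0.35 and wild-type from -2.52 to 0.08, with Lyz2 at 6.35. The mean of 5 erythroid markers was 1.30 on array F, where 4 of the 5 were highest of their genotype and Klf1 (-3.97) was among the 2 lowest, and 0.54 on wild-type array C, where 5 of the 5 were highest. All 6 NK markers (mean 0.76) and Cd8b1 (2.57) were also highest of their genotype on array F. On Roquin san/+ array C the CD4 T-cell markers were low, while the B-cell mean was -2.02 and the myeloid mean -0.35. Of the 10 myeloid markers 1, Itgam, was highest of its genotype on that array, at 6.20. On wild-type array C the B-cell mean was -3.09, which was the median of that genotype. The myeloid mean there was 0.08, with 6 of the 10 markers highest of their genotype.

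Between the genotypes, 7 of 7 B-cell and 10 of 10 myeloid markers were higher on average in Roquin san/+ and 8 of 8 CD4 T-cell markers lower, none with an adjusted p below 0.05. The mean of the CD4 T-cell markers ran from 1.75 to 3.47 in Roquin san/+ and from 2.37 to 3.55 in wild-type. Of 6 NK markers 4 were higher in Roquin san/+, with array means of -3.10 to 0.76 against -3.26 to -1.59, and Cd8b1 ran from -2.44 to 2.57 against -2.14 to -0.51. Of 5 erythroid markers 2 were higher, and of 4 plasma cell markers 4, with array means of -1.24 to 0.28 against -2.07 to -0.15. The part of other cells in the levels of the 36 genes was not tested.

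**Figure D3:**
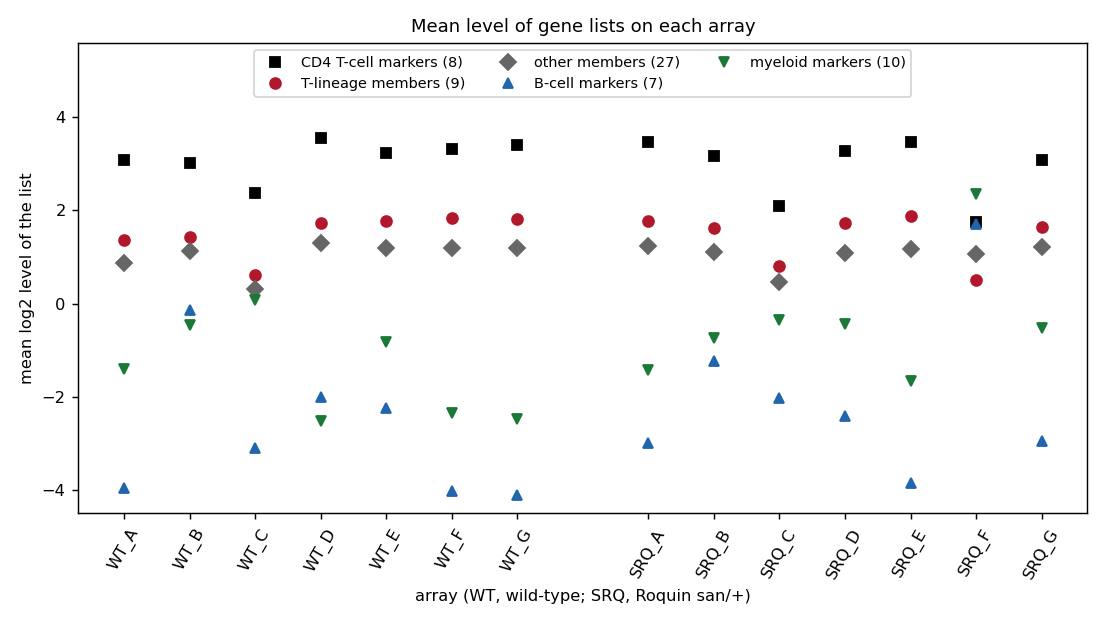
Mean log2 level on each array of 8 CD4 T-cell markers, the 9 T-lineage genes and the other 27 genes of the set, 7 B-cell markers and 10 myeloid markers. On SRQ_F the B-cell and myeloid means rise to 1.72 and 2.34 and the T-lineage mean is at its lowest, 0.51, whereas on WT_C the T-lineage genes and the other genes are both low.

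Scaling to the CD4 T-cell markers in place of the 75th percentile of the array subtracts one constant, the difference in the mean of these markers (-0.24, Roquin san/+ minus wild-type), from every difference by construction, and so leaves the order of the features as it was. With the mean of the 8 markers subtracted on each array, a scaling chosen after seeing the data, 34 of the 36 genes were higher in Roquin san/+ with a median of 0.24, beside a median of 0.29 over all probes tested. Ptpn22 then differed by 0.65, and no gene had an unadjusted limma p below 0.05.

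The slides differed in direction. On slide 1, 27 of the 36 genes were lower in Roquin san/+ and the median difference was -0.29, beside 0.23 over all probes. On slide 2, 29 of the 36 were higher and the median was 0.23, beside -0.13 over all probes. Only 10 of the 36 had the same sign on both slides. The 9 T-lineage genes were all lower on slide 1 (median -0.66) and all higher on slide 2 (median 0.38), and Lat differed by -0.89 on slide 1 and by 0.76 on slide 2.

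Roquin san/+ arrays C and F lay on slide 1 and wild-type array C on slide 2. Without these 3 arrays, left out after their marker levels had been seen, 17 of the 36 were higher and 19 lower on slide 1 (median -0.04, beside 0.14 over all probes), and 24 were higher and 12 lower on slide 2 (median 0.04, beside -0.14 over all probes). Of the 9 T-lineage genes 6 were then lower on slide 1 (median -0.14) and 9 higher on slide 2 (median 0.18). Over both slides together 25 of the 36 were higher, with a median of 0.05 beside 0.0049 over all probes, and none had an unadjusted p below 0.05.

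**Figure D4:**
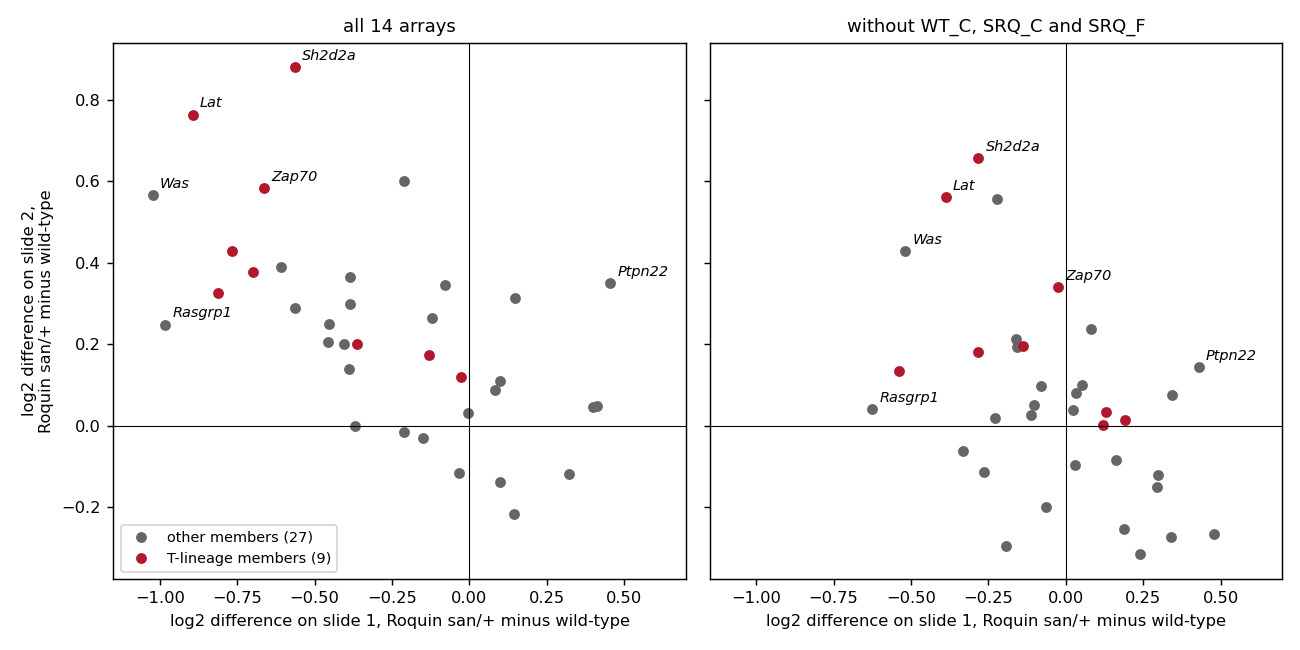
Log2 difference of Roquin san/+ minus wild-type on slide 1 (horizontal) and on slide 2 (vertical) for each of the 36 genes, with all 14 arrays (left) and without WT_C, SRQ_C and SRQ_F (right). With all arrays every T-lineage gene lies left of 0 and above 0, and Ptpn22 is positive on both slides in both panels.

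Of 85 further genes around the receptor, from the Cd3 chains to the Ras, calcineurin and NF-kappaB steps, 85 were tested and 0 had an adjusted or an unadjusted limma p below 0.05, with 39 higher and 46 lower in Roquin san/+ and a median difference of -0.02. The smallest unadjusted limma p was 0.0953, for Mapk9, a stress kinase, whose difference was -0.23 (exact two-sided permutation p = 0.0128, not adjusted for the 85 genes). Cd247, the zeta chain on which Zap70 docks, had the lowest difference, -0.62 with a standard error of 0.60. Its level on Roquin san/+ array C was -1.96, against a median of 2.46 in that genotype, and without that array the difference was -0.04. Vav2, a relative of Vav1, had the highest difference, 0.69 with a standard error of 0.48, and 0.22 without Roquin san/+ array C, where it was at -1.20.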

How the data were processed

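Total RNA of CD4+ T-cells was hybridised to 14 one-colour Cy3 arrays. The authors deposited, for each array, spot intensity values from Agilent Feature Extraction 10.5.1.1 (per the labels), of which the processed signal was background-subtracted and detrended, together with a table of log2 values whose normalization is not given in the sources used here. The members, lists and filters were chosen with earlier results of these data known. The processed signal of 2 arrays was moved back by 2 grid rows (the best of all shifts of up to 6 rows or columns). Control spots and outlier flags were left out, spots of a probe were averaged as log2, and the 75th percentile over 24219 probes well above background on the 12 well-placed arrays was subtracted. Probes well above background on at least 6 of these 12 arrays were kept (33114), and 283 with a missing value were left out. Genotypes were compared with limma 3.58.1 in R 4.3.3 (Benjamini-Hochberg over 32831 probes, threshold 0.05). A gene was represented by its tested probe with the highest mean. Single genes were also compared by the exact two-sided permutation over 3432 arrangements, whose smallest p is 5.83e-04. By the rule for named genes all 36 could be named, and the lowest, median and highest level of each genotype were given for 11 anchors of the roles, genes with an unadjusted p below 0.05 and the extremes of the differences. No member was saturated on any array. The fit was tested on simulated data. Values of some genes are not reported here. The number of arrays limits the precision. Alternatives covered scaling, background correction, filter, slide, replicate letter, the authors' log2 values and leaving out arrays. Python 3.11.15, numpy 2.4.6, pandas 2.3.3, scipy 1.17.1 and matplotlib 3.10.9 were used.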

Additional observations from a re-analysis of the deposited data

Results flagged for a closer look

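Within the 7 arrays of a genotype, the lowest or highest array stood far from the others for 13 of 72 combinations of gene and genotype (a gap to the nearest array, relative to the whole range, above Dixon's 95% value, which chance alone passes in about 1 of 20 groups). All 13 fell on 3 arrays. The 72 combinations share their arrays and are not independent, so their count cannot be set against that rate. Wild-type array C was far below the other wild-type arrays for Lck (4.09), Ptprc (2.51), Dgka (2.71), Dgkz (2.995), Pag1 (-0.53) and Ubash3b (-0.12). Roquin san/+ array C was far below its genotype for Vav1 (1.89), Was (-1.04), Ptprc (3.25), Nck1 (-1.94) and Cblb (-1.47). Roquin san/+ array F was far below its genotype for Plcg1 (-0.10) and far above it for Grb2 (2.40). These 3 arrays also had the lowest mean of the CD4 T-cell markers, and the part of that in the values was not tested.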

How the results depend on the processing

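No alternative gave an adjusted p below 0.05 for any gene of the set or for any probe. The count of genes with an unadjusted p below 0.05, 1 as reported, was 0 with the 75th percentile over all probes, normexp, no filter, slide as a block, slide 2 alone, the replicate block, the authors' log2 values, the deposited probe names, array weights, without both displaced arrays, without Roquin san/+ array F, without all 3 of these arrays, with scaling to the CD4 T-cell markers, and without the 3 arrays lowest in these markers (over both slides and on slide 2 alone). It was 2 on slide 1 alone, with or without those arrays (Grap2 and Rasgrp1). Of all probes tested on slide 1 alone 9.21% had an unadjusted p below 0.05, and 9.48% without those arrays. The 2 genes did not exceed that share of the set. Leaving out each array in turn gave 0 to 1 genes. The cause was not tested. The median difference of the set ran from -0.29 to 0.24 over 35 alternatives, and its sign changed in 15 (leaving out Roquin san/+ array F is counted under 2 of them).

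Ptpn22 stayed above 0 in all 35, from 0.14 (slide 2 without wild-type array C) to 0.65, with a p below 0.05 in 7. With the replicate block it was 0.41, and its unadjusted limma p was above 0.05. The deviations of same-lettered arrays correlated at -0.28 to 0.41. Arrays of different letters were not compared in this way, so these values cannot decide whether the letters mark pairs. The scaling to T-cell markers and the omission of the 3 arrays lowest in them were chosen after seeing the data. Over all probes, the count with an unadjusted p below 0.05 ran from 54 (deposited probe names) to 3237 (array weights), with 994 as reported.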
